A study of Mus musculus with 6 samples.

Results

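Camta1 and Camta2 encode calmodulin-binding transcription activators, and the CpG methylation of their promoters was measured by bisulfite amplicon sequencing in mouse embryonic cardiomyocytes. The members were all CpG sites of the 4 amplified regions of these genes, Camta1 regions 1 and 2 and Camta2 regions 1 and 2, covered by 10 or more calls in each of the 6 libraries. They numbered 94 of the 95 CpG sites listed for these regions and came from a series with 314 such sites in 26 regions. The site left out lies in Camta1 region 2. Primary cardiomyocytes came from embryonic day 13.5 ventricles of CD-1 mice, pooled by litter, and were the fraction that stayed unattached in a first plating, which is mostly cardiomyocytes. They received either DNMT1 siRNA, a pool of siRNAs, or a negative control siRNA, each at 12 nM, and DNA was extracted at 72 h from cells sorted magnetically for the surface protein VCAM1. There were 3 replicates of negative siRNA and 3 of DNMT1 siRNA. The titles of the negative siRNA samples end in (2) and those of the DNMT1 siRNA samples do not. The labels do not say what this marks, and it cannot be separated from the siRNA group. No expression was measured in these files, so neither the knockdown of Dnmt1 nor the cell type could be checked here. In bulk DNA a lower level in every cell and a different mixture of cells cannot be told apart. The sources do not say whether the replicates were separate cultures or litters. Tests that use the spread between replicates thus speak only for these samples. The main logistic regression and Fisher's exact test pool the calls of a group and do not use that spread.

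CAMTA proteins carry a CG-1 DNA-binding domain, ankyrin repeats and IQ motifs that bind calmodulin, which links them to calcium signalling. CAMTA2 is known in heart muscle as a co-activator of the cardiac homeobox factor Nkx2-5 and as part of a hypertrophic signal that class II histone deacetylases hold back. DNMT1 copies CpG methylation onto the new strand after replication, so loss of the enzyme dilutes the mark as cells divide. CpG-dense promoters are usually free of methylation, and CpG-sparse ones vary with cell type.

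The regions differed in sequence and in their place relative to the gene. All of them matched the minus strand of GRCm38.p6, the build that the labels call mm10, and both genes lie on that strand. Camta1 region 1 covers chr4:151862127-151862510, from 634 to 251 bp upstream of the most upstream Camta1 transcription start, with 44 CpG sites, a GC content of 71.4% and 11.4 CpG per 100 bp. Camta1 region 2 covers chr4:151862789-151863118, from 1242 to 913 bp upstream, with 9 CpG sites and 2.72 CpG per 100 bp. In RefSeq both overlap the antisense non-coding gene 9230110K08Rik. Camta2 region 1 spans the transcription start at chr11:70687869-70688297, with 34 CpG sites and 7.91 CpG per 100 bp. By GENCODE, 11 of its sites lie outside transcripts, 17 in untranslated and 6 in coding exon sequence of Camta2. In RefSeq Camta2 extends farther upstream, and those of the 11 below chr11:70688146 lie within it. Camta2 region 2 covers chr11:70688400-70688818, from 713 to 295 bp upstream, with 8 CpG sites and 1.90 CpG per 100 bp. It overlaps the 3′ end of the neighbouring gene Inca1, whose annotation ends 256 bp from the Camta2 start. Thus 3 of its CpG sites lie in the last coding sequence of Inca1 and 5 in its 3′ untranslated exon. Each gene was therefore sampled in a CpG-dense region near the start and a CpG-sparse region farther upstream.

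The following sequences show the CpG sites the results turn on, with each CpG in capitals, read 5′ to 3′ on the minus strand of GRCm38.p6. The stretch of Camta2 region 2 at chr11:70688606-70688818 begins in the last intron of Inca1, runs into its last coding exon and ends at the stop codon. Its 3 CpG sites, which include the most methylated one, lie close together in the coding part. The 30-base windows around the next CpG sites of that region follow, at chr11:70688565-70688594, chr11:70688513-70688542 and chr11:70688477-70688506, and show that each is a single CpG in CpG-poor sequence.
Camta2 region 2, Inca1 intron and coding part: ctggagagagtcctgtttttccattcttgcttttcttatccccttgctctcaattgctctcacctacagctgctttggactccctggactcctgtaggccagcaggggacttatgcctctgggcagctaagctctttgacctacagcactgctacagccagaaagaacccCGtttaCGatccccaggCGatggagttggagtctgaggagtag
Camta2 region 2, site 475 bp upstream: ccaggcccaagctaCGggacccaagatcaa
Camta2 region 2, site 423 bp upstream: tgctggcttcagagCGgatgttttctatct
Camta2 region 2, site 387 bp upstream: tctccatcccatagCGtaggcattcacagc

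For comparison, the upstream part of Camta2 region 1 at chr11:70688146-70688297, whose sites were nearly unmethylated, holds 6 CpG sites. The stretch of Camta1 region 2 at chr4:151862828-151862969 has 5 CpG sites. The stretch of Camta1 region 1 at chr4:151862369-151862456 has 13 in full, and its last base is the C of another. Both stretches hold sites at which some DNMT1 siRNA libraries stood above the negative siRNA libraries. The first of these is CpG-poor and the second CpG-dense.
Camta2 region 1, upstream part: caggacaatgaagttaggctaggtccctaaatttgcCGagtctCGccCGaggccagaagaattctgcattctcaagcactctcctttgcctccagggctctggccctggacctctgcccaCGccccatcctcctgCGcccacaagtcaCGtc
Camta1 region 2, stretch: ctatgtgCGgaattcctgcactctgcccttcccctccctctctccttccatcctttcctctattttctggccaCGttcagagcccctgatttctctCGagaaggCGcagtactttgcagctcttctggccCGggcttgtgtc
Camta1 region 1, stretch: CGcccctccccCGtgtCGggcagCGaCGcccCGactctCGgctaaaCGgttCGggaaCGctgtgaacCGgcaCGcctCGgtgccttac

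Short promoter motifs were searched on both strands of the first 300 bases of each region. The motif CGCG occurred 2 times in Camta1 region 1 and 1 time in Camta2 region 1, against 38.0% of the 32851 RefSeq promoters of that length that hold it. GGGCGG, the core of the GC box, occurred 2 times in Camta1 region 1 and is held by 35.7% of promoters. CCAAT, held by 37.4%, occurred in none of the 4 windows. Neither CpG-sparse region held any of these letters in its window, which says nothing about factors that bind there.

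Across the series the libraries held between 26793215 and 32253280 cytosine calls. At the member CpG sites coverage was uneven, from 497 to 19158 calls in Camta2 region 2, 754 to 12539 in Camta2 region 1, 17 to 32570 in Camta1 region 1 and 46 to 1617 in Camta1 region 2. Camta1 region 2 was thus the least precise. Amplicon reads carried no molecular identifiers, so intervals and floors cover counting error only. Intervals of a region's summed calls also treat cytosines on the same read as independent and can be too narrow.

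Camta2 region 2 was the only member region with methylation well above the non-CpG level, and it was lower with DNMT1 siRNA. The mean over its 8 CpG sites was 12.6%, 13.1% and 13.7% in the negative siRNA replicates. It was 8.66%, 9.11% and 7.79% in the DNMT1 siRNA replicates. The groups did not overlap, and the mean went from 13.1% ± 0.545 (SD, n = 3) to 8.52% ± 0.671 (SD, n = 3), a difference of -4.58 points. An exact two-sided permutation test gave p = 0.1, the smallest that 3 against 3 replicates allow, and an adjusted p of 0.124 over the 26 regions. Replicates lay apart in this direction in 76.9% of the regions. Its non-CpG share was 0.140% ± 0.0097 with negative siRNA and 0.150% ± 0.0019 with DNMT1 siRNA, with overlapping replicates (n = 3 each, exact permutation p = 0.3).

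Within the region methylation followed a steep profile along the sequence, in the plot of site levels against distance. The peak was the site 526 bp upstream of the Camta2 start, at chr11 position 70688631, in the coding part of Inca1. Its level was 27.4%, 28.9% and 29.9% with negative siRNA and 19.9%, 19.8% and 19.5% with DNMT1 siRNA. This site had the tightest DNMT1 siRNA replicates of the 4 called sites and the largest fall, from 28.7% ± 1.30 to 19.7% ± 0.186 (SD, n = 3 each).

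The site 537 bp upstream, at position 70688642, also lies in the coding part. It read 20.2%, 21.2% and 22.6% with negative siRNA and 15.1%, 16.2% and 13.4% with DNMT1 siRNA. Only 6 bases farther upstream, 543 bp from the start, the level was far lower, at 6.48%, 7.11% and 7.74% with negative siRNA and 4.09%, 3.99% and 3.93% with DNMT1 siRNA. CpG sites a few bases apart thus differed widely in level, while all 3 of these were lower with DNMT1 siRNA without overlap.

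The remaining sites lie in the untranslated exon of Inca1 and fell off toward Camta2. At 475 bp upstream, position 70688580, the levels were 22.7%, 24.1% and 26.1% against 15.7%, 18.9% and 14.4%. At 423 bp upstream, position 70688528, they were 15.4%, 14.1% and 14.7% against 8.66%, 9.37% and 7.47%. At 387 bp upstream, position 70688492, they were 4.94%, 5.46% and 4.59% against 2.87%, 2.83% and 1.70%. Each of these sites had separate groups, and DNMT1 siRNA replicate 2 came closest to the negative siRNA range at the first of them.

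The last pair of sites was nearly unmethylated. At 337 bp upstream, position 70688442, the levels were 1.46%, 1.46% and 1.20% against 1.44%, 0.703% and 0.226%, and the groups overlapped through DNMT1 siRNA replicate 1. At 331 bp upstream, position 70688436, they were 2.04%, 2.27% and 2.41% against 1.56%, 1.04% and 1.65%, with no overlap. From 526 to 331 bp upstream the negative siRNA mean thus went from 28.7% to 2.24%. The next CpG toward the gene, 175 bases on and already in Camta2 region 1, measured 0.276% ± 0.110 with negative siRNA and 0.204% ± 0.0750 with DNMT1 siRNA (SD, n = 3 each).

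**Figure D1:**
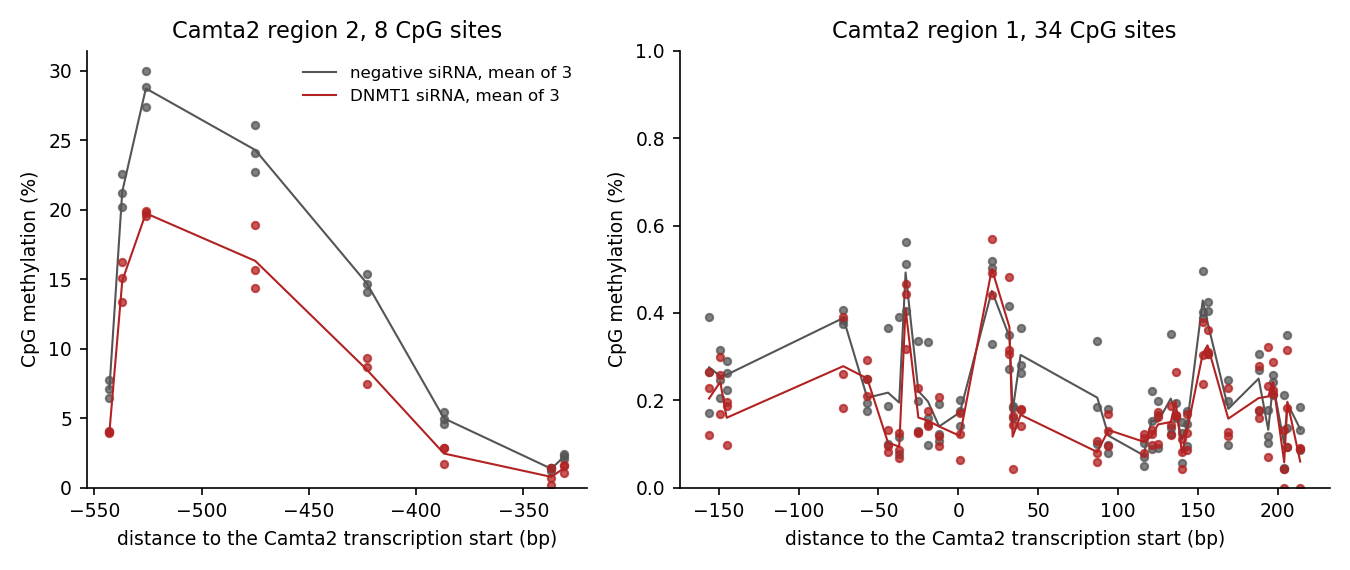
CpG methylation (%) against distance to the Camta2 transcription start (bp), for region 2 (left) and region 1 (right, axis to 1%); points are the 3 replicates of each group and lines their means. In region 2 the negative siRNA mean peaked at 28.7% and the DNMT1 siRNA mean at 19.7% at the same site, and in region 1 no site mean was above 0.501%.

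All 8 sites were lower in the pooled counts, and 7 of them had no overlap between replicates, against 43.9% of all tested sites. In the logistic regression on methylated and unmethylated counts, the 4 sites at 537, 526, 475 and 423 bp upstream passed an adjusted p of 0.05 with a pooled difference over 5 points. Over the series 37.6% of sites did so in this direction. Their pooled differences were -6.35, -8.96, -7.84 and -6.04 points, and the largest of their adjusted p was 8.23e-95. That test treats every call as independent. In a quasi-binomial F test, which takes the spread between replicates into account, the same 4 sites were called, with adjusted p of 0.0277, 0.00586, 0.0452 and 0.0156, where 20.7% of all sites were. The site 475 bp upstream had the largest dispersion of the region, 31.7 times binomial. With any size of difference, all 8 sites passed in the logistic regression, against 65.9% of the series. In limma the 4 sites had adjusted p of 0.0463, 0.0255, 0.0440 and 0.0162. In the quasi-binomial test 6 of the 8 were lower regardless of size, against 23.6% of the series. The 2 that did not were the sites nearest to Camta2, with adjusted p of 0.289 and 0.0726. Leaving out any 1 replicate kept 4 called sites in the logistic regression, but in the quasi-binomial test 1 or 2 sites were called when any replicate other than DNMT1 siRNA replicate 2 was left out.

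The fall was closer to proportional than to a fixed number of points. The level left with DNMT1 siRNA, as a share of the negative siRNA mean, lay between 49.4% and 69.9% at the 8 sites, with a median of 60.5%, although their negative siRNA means ranged from 1.37% to 28.7%. The 4 called sites kept between 57.8% and 69.9%. The lowest share, 49.4%, was that of the site 387 bp upstream, whose level with negative siRNA was only 5.00% ± 0.435. The 4 called sites held 80.8% of the summed fall of the region. The called sites were the 4 with the highest starting level. Of the others, 3 started at means of 5.00% or less, which left little or no room for a fall of over 5 points.

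Among the 20 regions with at least 5% CpG methylation with negative siRNA, Camta2 region 2 ranked among the lowest in the share left. It kept 65.0% of its level. The other 19 regions kept between 61.4% and 86.4%, with a median of 75.7%, and 1 of them, Myh7 region 2 at 61.4%, kept less. Nppa region 2, with a similar negative siRNA level of 8.95%, kept 65.0%, and Mef2d region 2, with 16.0%, kept 73.3%. On the log2 scale, the ratio of Camta2 region 2 to the mean of the other methylated regions was -1.98, -1.88 and -1.88 with negative siRNA and -2.03, -2.13 and -2.28 with DNMT1 siRNA. The replicates did not overlap, and the difference of -0.23 gave an exact permutation p = 0.1 (n = 3 each) and 0.333 after adjustment over the 20 regions. The difference did not pass after adjustment.

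**Figure D2:**
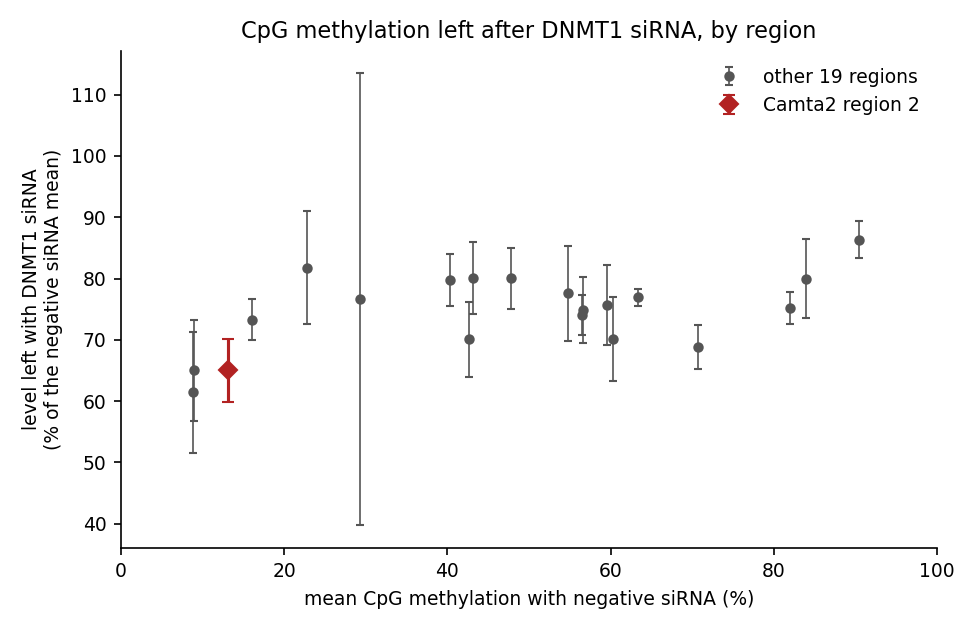
Level left with DNMT1 siRNA (% of the negative siRNA mean) against the mean CpG methylation with negative siRNA (%) for the 20 regions at or above 5%; points are means and bars the SD of 3 DNMT1 siRNA replicates. Camta2 region 2 sits at 13.1% and 65.0%, among the lower regions of the plot.

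Camta2 region 1, around the transcription start, was nearly unmethylated in both groups. The mean over its 34 CpG sites was 0.191%, 0.237% and 0.249% with negative siRNA and 0.179%, 0.198% and 0.185% with DNMT1 siRNA, which overlapped. The group means were 0.226% ± 0.0307 and 0.187% ± 0.00951 (SD, n = 3 each, exact permutation p = 0.2, adjusted p = 0.226). Between 15 and 21 of the 34 sites lay above the non-CpG share of the region in any 1 sample, so the CpG level was close to the level of unconverted non-CpG cytosines. That share was 0.184%, 0.190% and 0.177% with negative siRNA and 0.155%, 0.171% and 0.160% with DNMT1 siRNA. The DNMT1 siRNA shares were all lower, which was so in 11.5% of the regions (n = 3 each, exact permutation p = 0.1, adjusted p = 0.371).

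The site of Camta2 region 1 with the highest negative siRNA mean lies 33 bp upstream of the start, at 0.405%, 0.512% and 0.561% with negative siRNA and 0.467%, 0.318% and 0.442% with DNMT1 siRNA, and its groups overlapped. The largest fall, 39 bp inside the untranslated first exon, went from 0.304% ± 0.0549 to 0.167% ± 0.0220, a pooled difference of -0.139 points. The largest rise was 0.0723 points, in the coding exon. In the logistic regression 5 sites were lower at an adjusted p under 0.05, by 0.105 to 0.139 points, against 65.9% of the series. None was called, because the levels were below the 5-point threshold in every sample, and 6 sites were lower and 0 higher at an unadjusted p under 0.05. In the quasi-binomial test 1 site, that with the largest fall, was lower at any size, with adjusted p = 0.0489. Sites were also averaged by GENCODE feature, outside transcripts, in the untranslated exon and in the coding exon. These means were 0.259%, 0.222% and 0.175% with negative siRNA and 0.200%, 0.188% and 0.162% with DNMT1 siRNA.

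The 2 Camta2 regions, separated by 102 bases, thus differed by a large margin within each library. Region 2 minus region 1 was 12.4, 12.8 and 13.4 points with negative siRNA and 8.48, 8.91 and 7.60 points with DNMT1 siRNA. The contrast was lower without overlap, with a difference of -4.54 points (exact permutation p = 0.1, n = 3 each, adjusted p = 0.183 over 11 genes). Most of it came from region 2, since region 1 moved by -0.0382 points.

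**Figure D3:**
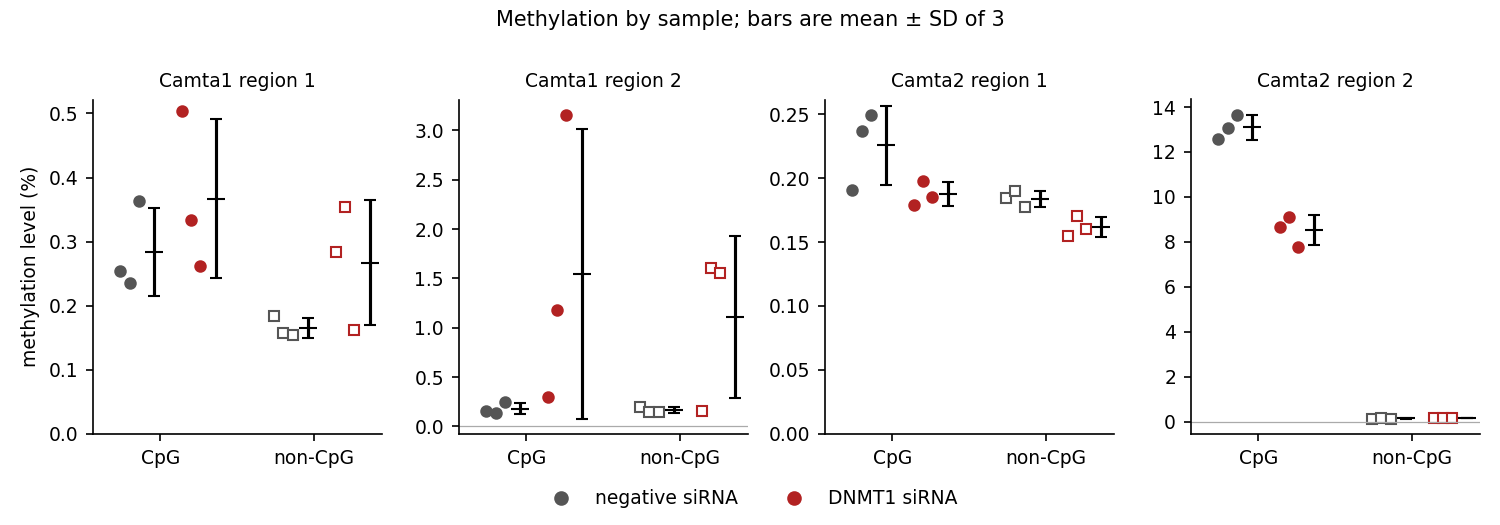
Methylation level (%) of each sample in the 4 regions, as the mean over CpG sites (filled circles) and the share of all non-CpG calls (open squares), with the mean ± SD of 3 beside them; each panel has its own axis. The CpG mean left the non-CpG level in both groups only in Camta2 region 2, at 13.1% and 8.52%, while Camta1 region 2 was high in both contexts in DNMT1 siRNA replicates 2 and 3.

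Camta1 region 2, CpG-sparse like Camta2 region 2, was nearly unmethylated with negative siRNA. The mean over its 8 tested sites was 0.156%, 0.135% and 0.245% with negative siRNA, at the non-CpG share of 0.199%, 0.147% and 0.147%. With DNMT1 siRNA it was 0.296%, 1.18% and 3.16%. The DNMT1 siRNA values were all higher, but they spread over a wide range. This was the only region where that was so, 1 of 26 (3.85%). The group means were 0.179% ± 0.0580 and 1.54% ± 1.47 (SD, n = 3 each, exact permutation p = 0.1, adjusted p = 0.124).

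The non-CpG cytosines of the same region were raised in the same libraries. Their share was 0.159%, 1.61% and 1.56% with DNMT1 siRNA, against at most 0.199% with negative siRNA (exact permutation p = 0.2, n = 3 each). Replicate 1 was within the range of the negative siRNA libraries at the non-CpG cytosines and above it in the unweighted CpG mean. With the calls of the CpG sites pooled, it was at 0.202%, below the negative siRNA libraries at 0.248%, 0.280% and 0.343%. The separation of the groups at CpG sites thus depended on the weighting. The exact permutation p was 0.4 with the coverage-weighted CpG mean and 0.4 at a coverage minimum of 100. The 95% Wilson interval of replicate 2 was 1.53% to 1.70%, that of replicate 3 was 1.47% to 1.65% and that of negative siRNA replicate 1 was 0.155% to 0.255%.

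The raised cytosines lay in blocks. The windows given here were chosen after seeing the profiles, so contrasts between neighbouring windows partly follow from that choice. In DNMT1 siRNA replicate 3, the 5 non-CpG cytosines between 1079 and 1071 bp upstream of Camta1 averaged 14.8% and reached 15.4%, from 149 to 164 calls each. The 15 non-CpG cytosines between 1060 and 1034 bp upstream measured 8.24% to 11.1%. Between 1022 and 982 bp upstream the 10 non-CpG cytosines averaged 7.98% and the 3 CpG sites 7.73%, and between 977 and 930 bp upstream they averaged 0.507% and 0.439%. In this library CpG and non-CpG cytosines thus had like levels in the raised part and past its end, while the first 2 windows held no tested CpG.

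DNMT1 siRNA replicate 2 was raised over a longer part of the region, including positions where replicate 3 was also raised. Between 1215 and 1156 bp upstream its 22 non-CpG cytosines averaged 2.44% and the 1 CpG there 3.06%, from 1290 to 1450 calls each. In that window the 3 negative siRNA libraries averaged 0.205%, 0.216% and 0.208% at the non-CpG cytosines. Between 1060 and 1034 bp upstream the replicate averaged 1.93%, and between 1022 and 982 bp upstream the CpG sites averaged 1.96% and the non-CpG cytosines 1.60%. Negative siRNA replicate 1 averaged 0.954% at the non-CpG cytosines between 1060 and 1034 bp upstream, where each raised site held 1 or 2 unconverted calls of 110 or fewer.

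**Figure D4:**
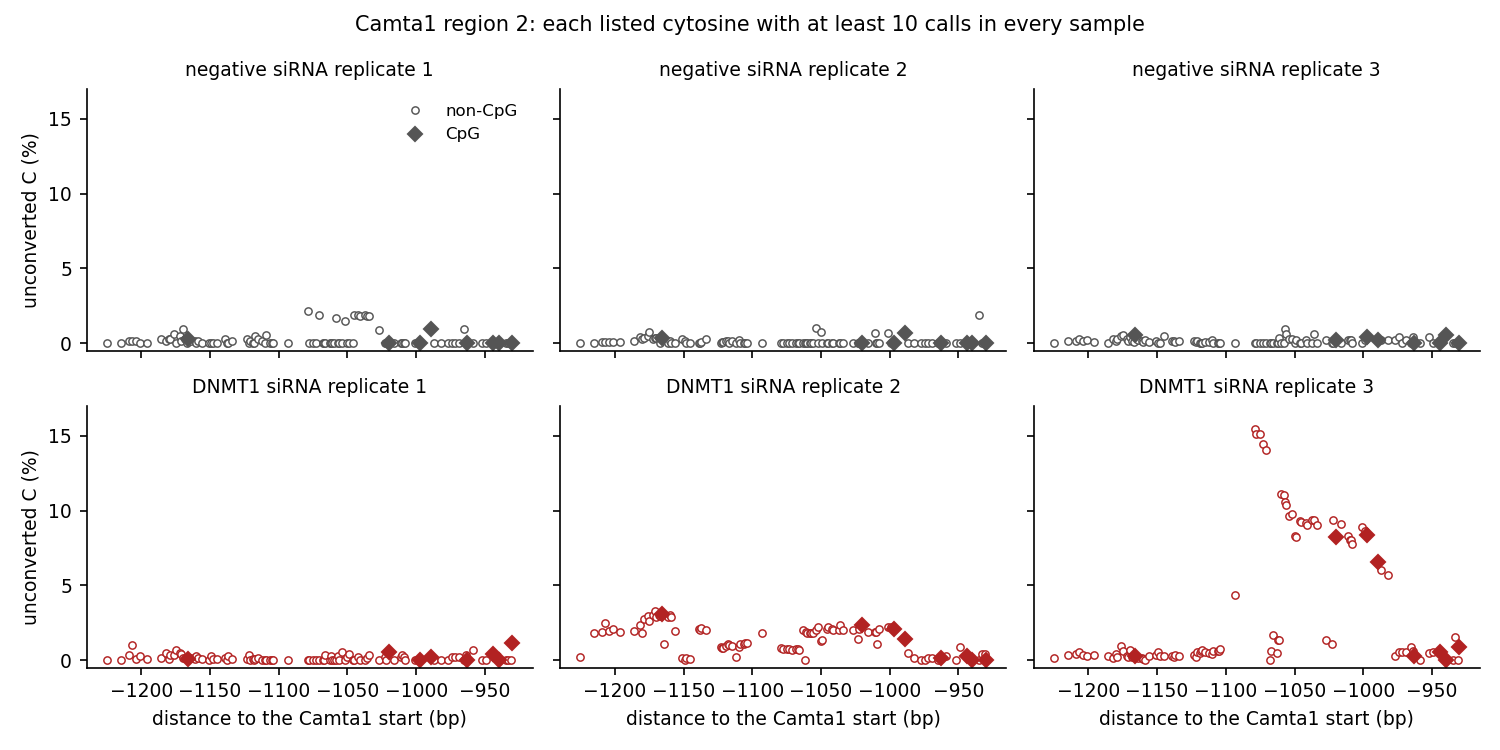
Unconverted C (%) at each cytosine of Camta1 region 2 with at least 10 calls in every sample, against distance to the Camta1 start (bp), for each library; diamonds are CpG and open circles non-CpG cytosines. DNMT1 siRNA replicate 3 reached 15.4% at non-CpG cytosines, and its CpG sites lay at the level of their neighbours.

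The site values follow these blocks. At 1020 bp upstream, the largest pooled rise of the region, unconverted calls were 0, 0 and 1 of 108, 144 and 486 with negative siRNA, and 3, 15 and 30 of 550, 632 and 363 with DNMT1 siRNA. The levels were thus 0.545%, 2.37% and 8.26% with DNMT1 siRNA, a pooled difference of 2.97 points with adjusted p = 6.25e-08 in the logistic regression and 0.277 in the quasi-binomial test. At 989 bp upstream, the site with the highest negative siRNA mean, the levels were 0.935%, 0.699% and 0.206% against 0.183%, 1.44% and 6.53%. At 1166 bp upstream they were 0.315%, 0.384% and 0.557% against 0.0870%, 3.06% and 0.309%, so only replicate 2 was raised. In all, 4 of the 8 sites were higher in the logistic regression at an adjusted p under 0.05. In the series 24 of 314 sites (7.64%) were, and these include the 4 here and 19 in Camta1 region 1. All 4 lay in a raised stretch, defined below from the same values, so this overlap partly follows from the definition. None was called at 5 points in the logistic regression, the quasi-binomial test, limma or Fisher's exact test. In the quasi-binomial test 1 site, 944 bp upstream, was higher at any size, with 1 unconverted call in each DNMT1 siRNA library and 0 in the others. It was the only such site of the series, 1 of 314 (0.318%). At the median coverage of the sites, a count of 0 allows a level of up to 2.87% in negative siRNA replicate 1 and 0.490% in DNMT1 siRNA replicate 2. The largest fall, at 940 bp upstream, rested on 1 unconverted call in a single negative siRNA library.

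The CpG difference of this region was also computed with the non-CpG cytosines taken into account. With the non-CpG share subtracted, the difference was 0.421 points in place of 1.36. That share is weighted by calls, whereas the CpG mean is unweighted. As an unweighted mean over cytosines, the non-CpG difference was 1.51 points, larger than the CpG difference. With the raised stretches of both libraries left out, a choice made after seeing the data, 4 CpG sites remained, with levels of 0%, 0% and 0.145% against 0.389%, 0.117% and 0.439%, and the difference was 0.267 points (exact permutation p = 0.2). Without DNMT1 siRNA replicate 3 it was 0.557 points, and without replicate 1 it was 1.99. A raised stretch was defined as at least 5 consecutive cytosines, each at least 0.25 points above the median of the 6 libraries and with the lower 95% Wilson bound above that median. In the 26 regions there were 25 such stretches. Of these, 7 lay in Camta1 region 2 and 5 in Camta1 region 1, all in DNMT1 siRNA libraries. The other regions held 10 in negative siRNA and 3 in DNMT1 siRNA libraries, and the Camta2 regions held 0. What raised these cytosines was not tested.

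Camta1 region 1, the densest of the 4, was also nearly unmethylated. Its CpG mean over 44 sites was 0.254%, 0.236% and 0.363% with negative siRNA and 0.504%, 0.334% and 0.262% with DNMT1 siRNA, and the groups overlapped. The means were 0.284% ± 0.0687 and 0.367% ± 0.124 (SD, n = 3 each, exact permutation p = 0.5, adjusted p = 0.542). Its non-CpG share was 0.184%, 0.157% and 0.155% with negative siRNA and 0.284%, 0.355% and 0.162% with DNMT1 siRNA, so replicates 1 and 2 were raised and replicate 3 was not.

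As in region 2, the rise lay in blocks that CpG and non-CpG cytosines shared, again given in windows chosen after seeing the profiles. Between 552 and 508 bp upstream the 7 CpG sites averaged 0.520% and 0.487% in DNMT1 siRNA replicates 1 and 2, and the 9 non-CpG cytosines 0.472% and 0.533%. Replicate 3 measured 0.102% at those CpG sites, below the negative siRNA libraries at 0.185%, 0.156% and 0.156%. In the following window, 506 to 458 bp upstream, the CpG averages of all 6 libraries lay between 0.121% and 0.164%.

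Farther toward the gene the 2 libraries parted. Between 456 and 414 bp upstream the CpG average was 0.544% in replicate 1 and 0.166% in replicate 2. Between 411 and 392 bp upstream it was 0.126% in replicate 1 and 0.555% in replicate 2. Between 355 and 306 bp upstream replicate 2 reached 0.730% at CpG and 0.715% at non-CpG cytosines. The cytosines of the last window had between 2620 and 17231 calls in replicate 2, and the raised windows of the 2 libraries coincided in part.

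**Figure D5:**
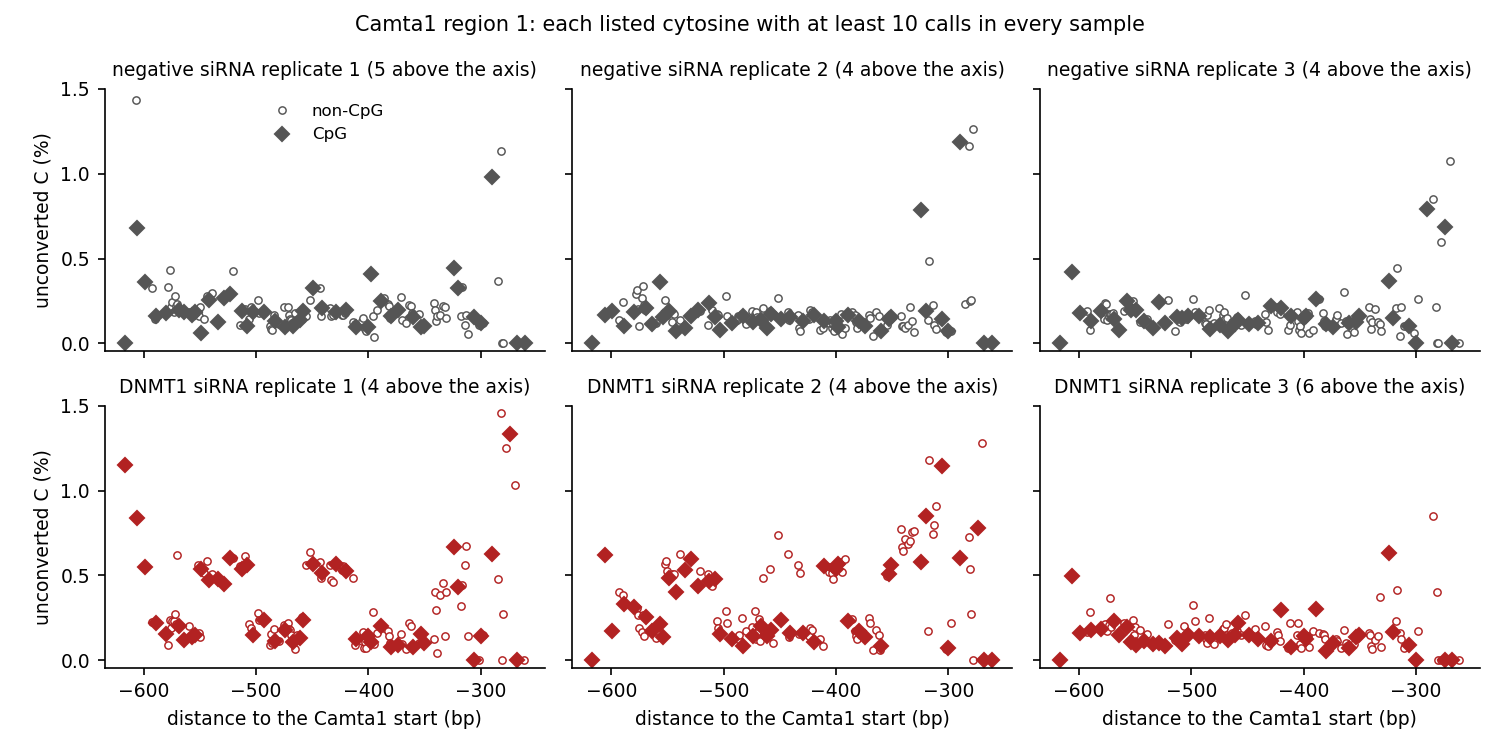
Unconverted C (%) at each cytosine of Camta1 region 1 with at least 10 calls in every sample, against distance to the Camta1 start (bp), for each library, with the axis cut at 1.5%; diamonds are CpG and open circles non-CpG cytosines. Plateaus near 0.5% appear in DNMT1 siRNA replicates 1 and 2 and in no negative siRNA library.

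In the logistic regression 19 of the 44 sites were higher and 2 lower at an adjusted p under 0.05, against 7.64% and 65.9% of the series. The 24 higher sites behind the 7.64% include these 19 and the 4 of Camta1 region 2. The rises were 0.0788 to 0.254 points, and 1 of the 19 had no overlap between replicates. In a raised stretch lay 10 of the 19, which partly follows from the definition, since stretches were drawn from the same values. None was called at 5 points in the logistic regression, and 0 of the 44 passed the quasi-binomial test. At an unadjusted p under 0.05 the logistic regression gave 20 higher and 3 lower sites. The CpG difference of 0.0826 points turned to -0.0189 with the non-CpG share subtracted, and was 0.0139 without DNMT1 siRNA replicate 1. The subtracted share is weighted by calls and differed by 0.101 points. The unweighted mean over non-CpG cytosines differed by 0.0316 points, less than the CpG difference, so the reversal depends on the weighting.

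The ends of Camta1 region 1 rest on few calls. The site with both the highest negative siRNA mean and the largest pooled rise, 261 bp upstream, had 17 to 30 calls, and its mean of 2.78% ± 4.81 came from a single library at 8.33%. The largest fall, at 274 bp upstream, had 90 to 193 calls and went from 2.22%, 2.84% and 0.685% to 1.33%, 0.781% and 0%, with overlap. Among the 40 sites covered by 100 or more calls in each library, negative siRNA means ran from 0.0629% to 0.989%. Also near this end, the non-CpG cytosine 275 bp upstream was high in every library, at 18.5%, 10.4% and 8.78% with negative siRNA and 9.93%, 7.09% and 8.76% with DNMT1 siRNA, from 92 to 194 calls. A second one, 269 bp upstream, measured 17.9%, 10.6% and 8.24% against 12.9%, 6.76% and 10.1%. Unlike the blocks above, these were shared by all 6 libraries and did not differ by group beyond the spread.

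In the other regions the highest non-CpG cytosines with negative siRNA rested on few unconverted calls. In Camta2 region 1 it was the first listed cytosine, 192 bp upstream, with 10 unconverted of 35 calls in negative siRNA replicate 1 and 0 of 65 in replicate 3. In Camta2 region 2 it was a cytosine 315 bp upstream, with 0 to 2 unconverted calls in every library, and in Camta1 region 2 the highest with negative siRNA, 1036 bp upstream, held 2, 0 and 3 unconverted calls in the negative siRNA libraries.

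Within Camta1 the contrast of region 2 minus region 1 was -0.0973, -0.101 and -0.118 points with negative siRNA. It was -0.208, 0.842 and 2.90 points with DNMT1 siRNA, so the groups overlapped (exact permutation p = 0.4, n = 3 each, adjusted p = 0.550 over 11 genes). Replicate 1 alone was lower than the negative siRNA libraries, and the difference of 1.28 points was 0.422 without replicate 3.

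Each of the low Camta regions was also set against the mean of the other regions under 1% with negative siRNA, of which there were 4 in all, the fourth in Cdkn1B. Camta1 region 1 differed from them by -0.00347 ± 0.0443 points with negative siRNA and by -0.354 ± 0.558 with DNMT1 siRNA (SD, n = 3 each, exact permutation p = 0.4). For Camta1 region 2 the values were -0.144 ± 0.0519 and 1.21 ± 1.55 points (exact permutation p = 0.2, n = 3 each). Camta2 region 1 went from -0.0817 ± 0.0741 to -0.593 ± 0.420 points without overlap (exact permutation p = 0.1, n = 3 each). The adjusted p of all 3 was 0.400. The reference of Camta2 region 1 holds Camta1 region 2, whose own rise enters this difference. Without DNMT1 siRNA replicate 3 the 3 differences between the groups, -0.351, 1.36 and -0.512 points, were -0.0402, 0.523 and -0.270.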

How the data were processed

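Bisulfite-converted amplicons of 2 promoter regions per gene were tagmented and sequenced in 6 libraries. Per the labels, the authors used FastQC, Bismark and Bowtie2 with mm10. The paper describes alignment to a reference made of the amplicons and converted in silico. Tool versions, and whether PCR duplicates were removed, are not given in the sources used here. For every cytosine the deposited files hold the number of calls (coverage, a count) and the percent read as C or as T, both computed by the authors. Percent times coverage came within 4e-06 of whole counts, which were tested.

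Levels were taken at cytosines with at least 10 calls in every sample, and region means are unweighted over CpG sites. Each CpG was tested by logistic regression (likelihood ratio, no overdispersion) with Benjamini-Hochberg adjustment over all 314 sites, and called at adjusted p under 0.05 and over 5 points of pooled difference. A quasi-binomial F test with no floor on the dispersion and limma 3.58.1 (R 4.3.3) on log2 ratios with an offset of 1 were alternatives. Region values were compared by exact two-sided permutation over 20 relabellings, adjusted over 26 regions, 11 genes or the regions compared. Regions were placed on GRCm38.p6 with GENCODE vM21 and RefSeq by their listed cytosines. Python 3.11.15, numpy 2.4.6 and scipy 1.17.1 were used, and the site tests were tested on simulated data.

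In methylated regions every CpG was named, and in low regions the highest site, the largest rise and fall and any called site. The members, motifs and naming rule were chosen with earlier results of these data known. Alternatives were coverage minimums, weights, medians, corrections for the non-CpG rate, other thresholds and tests, the replicate block and leaving out each replicate.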

Additional observations from a re-analysis of the deposited data

Results flagged for a closer look

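Non-CpG cytosines, which stand outside the CpG comparison, carried a signal above the negative siRNA libraries in Camta1. The Wilson 95% interval of the library lay above that of the highest negative siRNA library in 4 cases. In Camta1 region 1 these were DNMT1 siRNA replicate 1, at a non-CpG share of 0.284%, and replicate 2, at 0.355%. In Camta1 region 2 they were replicate 2, at 1.61%, and replicate 3, at 1.56%. Intervals are given for the Camta regions only, but libraries of both groups stood out elsewhere. DNMT1 siRNA replicate 1 had 0.340% in Nppa region 2, against at most 0.204% with negative siRNA. Negative siRNA replicate 1 had 0.653% in Cdkn1A region 1, and replicate 3 had 0.654% in Mef2d region 1. All DNMT1 siRNA shares were higher in Myh6 regions 1 and 2, Tnni3 region 1 and Tnnt2 region 1, and lower in 3 of 26 regions. Intervals cover counting error only, treat calls of cytosines on the same read as independent and can be too narrow. The part of conversion, amplification or alignment in these values was not tested.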

How the results depend on the processing

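The count of 4 lower sites in Camta2 region 2 was 8 with no difference threshold, and the count of 0 called sites in the 3 low regions was then 30. With a threshold of 10 points, or in limma with the replicate block, 0 sites of Camta2 region 2 were called, with adjusted p of 0.135, 0.106, 0.112 and 0.0677 for the 4 sites in the blocked fit. The logistic regression with the replicate block gave 4. The replicate numbers are shared by the groups, but the labels do not say what they mark. Deviations of same-numbered samples over 167 CpG sites correlated at -0.374, -0.0792 and 0.0127. Differently numbered samples were not compared, so these values cannot show whether the samples are paired. The main tests did not treat them as pairs. The exact sign-flip test of same-numbered differences cannot go below p = 0.25. The quasi-binomial count, 4, was between 1 and 2 without any 1 replicate except DNMT1 siRNA replicate 2, and was 4 with the dispersion held at 1 or above, both choices made after seeing the data. The CpG difference of Camta1 region 1 reversed to -0.0189 with the non-CpG share subtracted. That step takes a call-weighted share from an unweighted CpG mean, and the reversal depends on this weighting. Without DNMT1 siRNA replicate 1 the difference was 0.0139, and without replicate 3 it was 0.135. That of Camta1 region 2 ranged from 0.557 without DNMT1 siRNA replicate 3 to 1.99 without replicate 1, and over all alternatives from 0.267 without the raised stretches to 2.00 at a coverage minimum of 100. The other region values kept their direction under every alternative run. Depth limits Camta1 region 2 most, and region tests cannot pass 0.05 with 3 replicates.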
